A study of Arabidopsis thaliana with 9 samples.

Results

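The comparison described here set 3 libraries from roots of the line 35S:rMYB83 against 3 libraries from wild-type Col-0 roots of Arabidopsis thaliana, 6 of the 9 libraries in the series. The 35S:rMYB83 plants overexpress a form of MYB83 that resists miR858, driven by the constitutive cauliflower mosaic virus 35S promoter. The Col-0 plants carry no transgene. The other 3 libraries come from 35S:miR858 plants, which overexpress the microRNA, and are set beside the pair where a value bears on it. All plants were 2 weeks old and were grown at 24 °C with 16 h of light and 8 h of dark, and poly(A) RNA from roots was sequenced in each case. The labels do not say whether 35S:rMYB83 is 1 transformed line or several, or whether the replicates are separate plants or harvests, so the p-values measure the spread between these libraries only. The members are all loci in the count files: of 28775 loci, 19496 had enough reads to be tested and 9279 fell under the filter on low counts.

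MYB83 is an R2R3-type MYB transcription factor that acts redundantly with MYB46 to switch on the building of secondary walls in xylem vessels and fibres. The factor binds a short promoter element, the secondary wall MYB-responsive element. The microRNA miR858 pairs with messenger RNAs of many R2R3 MYB genes and leads to their cleavage, and the study of which these libraries are part asked how miR858 and MYB83 shape root gene expression during infection by cyst nematodes. A root also takes up nitrate, sulphate, phosphate, potassium and water, and its transporter genes are known to respond to the supply of each. Those families, and those of hormones, peptides and specialised metabolism, are described here rather than the secondary wall genes.

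The pairing that the resistant form is made to escape can be read in the reference sequence. The mature miR858a lies at chr1:26773695-26773715 on the minus strand, and its site in wild-type MYB83 at chr3:2577626-2577646 on the minus strand (RefSeq, TAIR10.1). Both are shown 5′ to 3′, with the 18 of 21 bases that form Watson-Crick pairs in capitals.
miR858a: TtTCGTTGTCTGTTCgACCTt
MYB83 site: cAGGTaGAACAGACAACGAgA
Of the other bases, 1 forms a G:U pair and 2 are not paired. The changed sequence of the resistant form was not used here, and the counts do not separate its reads from those of the native gene.

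MYB83 (AT3G08500) had 134, 98.0 and 102 CPM (counts scaled to library size, adjusted by trimmed means) in 35S:rMYB83 roots, against 0.948, 2.17 and 0.723 CPM in Col-0 roots. The labels of all 6 libraries fit this order, and the log2 difference was 6.39 (SE 0.28, adjusted p = 5.16e-06). Here and below, a log2 difference is 35S:rMYB83 minus Col-0, and adjusted p-values are from edgeR's quasi-likelihood test with Benjamini-Hochberg adjustment over all 19496 genes. Each SE was derived from that test, as the absolute log2 difference divided by the square root of the F statistic.

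The libraries held 5313656 to 8678440 counts in genes in 35S:rMYB83 and 8131026 to 10648857 in Col-0. Log CPM values correlated at 0.965 to 0.986 within groups and at 0.907 to 0.955 between them. Replicate 1 of each group stood apart on the second principal component, which held 20.6% of the variance. On the first, which held 60.1%, Col-0 replicate 1 lay at -16.1, and Col-0 replicates 2 and 3 at -58.2 and -58.3. The 35S:rMYB83 libraries lay at 61.6, 31.6 and 39.4 there, so Col-0 replicate 1 was the Col-0 library nearest to them. Markers of green shoot tissue summed to 12100, 1661 and 2737 CPM in 35S:rMYB83 roots, against 6175, 1418 and 1128 CPM in Col-0 roots, so both replicate 1 libraries were the highest of their groups. None of the 43 shoot markers passed the edgeR test, none had an unadjusted p under 0.05, and DESeq2 called none, but 4 were called higher without Col-0 replicate 1. In whole roots, fewer cells of a type and less RNA per cell cannot be told apart.

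At an adjusted p under 0.05, 1306 genes rose in 35S:rMYB83 roots and 1897 fell, which is 6.70% and 9.73% of the genes tested and 16.4% together. Of these, 411 rose and 889 fell at least 2-fold. The median log2 difference over all genes tested was 0.007. The share that fell depended on the scaling: trimmed means put 40.8% of called genes higher and 59.2% lower, whereas plain library totals, which shift the median by -0.10, put 23.3% (842 genes) higher and 76.7% lower. Leaving out 1 library gave 783 to 1537 genes higher and 1223 to 2254 lower: the higher count was 783 without 35S:rMYB83 replicate 2, 804 without 35S:rMYB83 replicate 3 and 802 without Col-0 replicate 2, and the lower count was 1223 without Col-0 replicate 3. No called gene changed sign in any of these fits. The values of the 2 groups did not overlap for 6622 genes, or 34.0%.

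**Figure D1:**
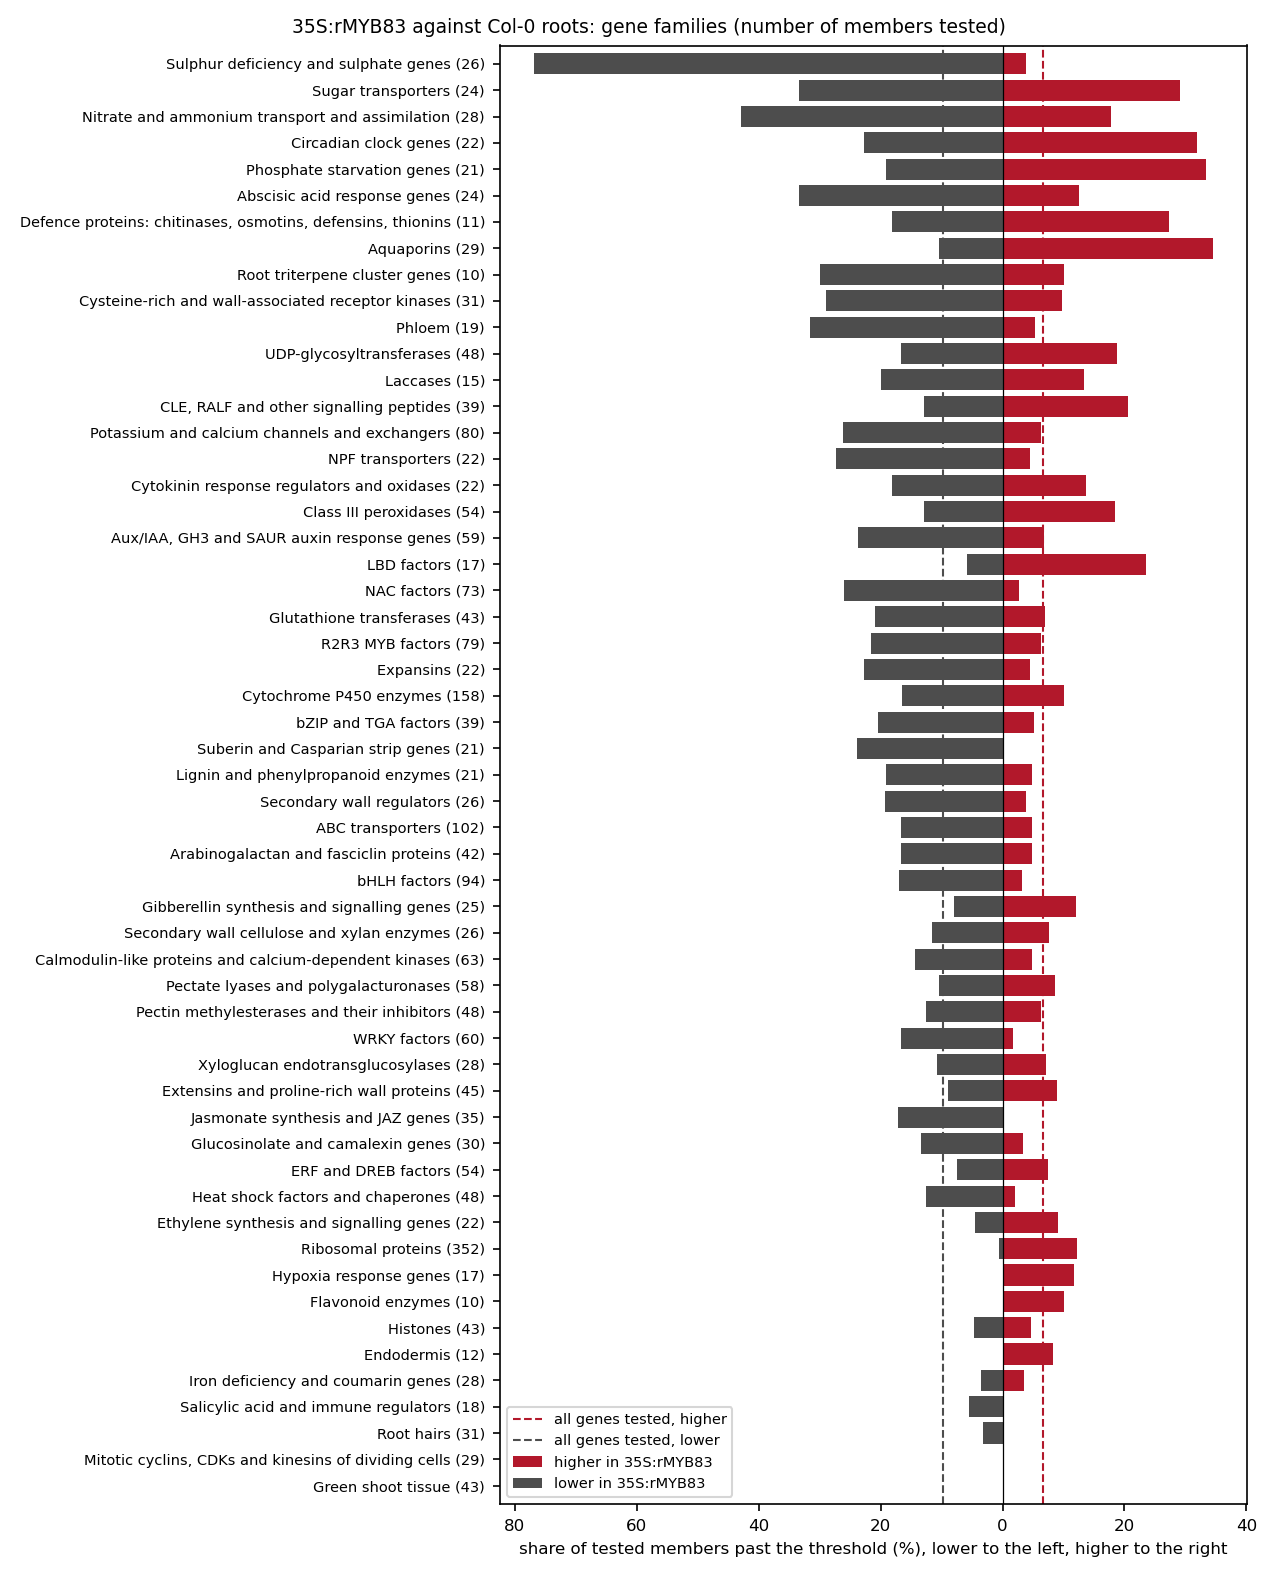
Share of tested members of each gene list that passed the threshold in 35S:rMYB83 against Col-0 roots, in percent, with members that rose to the right and members that fell to the left; the number tested is in parentheses, lists with fewer than 10 tested members are left out, and dashed lines give the shares over all genes tested, 6.70% higher and 9.73% lower. Sulphur genes stand out to the left, aquaporins and phosphate genes reach farthest to the right, and the lists of shoot tissue and of dividing cells show no called member. The lists were chosen with earlier results of these data known.

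The largest relative changes were in genes close to silent in one of the groups. On the higher side, AT2G33350, which encodes a CCT motif protein, had 2.84, 3.67 and 5.56 CPM in 35S:rMYB83 roots and no read in any Col-0 library. Taking 3 counts as the group's floor, it was at least 43.5-fold higher. SESA4, a seed storage albumin, had 5.68, 8.68 and 5.11 CPM in 35S:rMYB83 roots, against 0, 0.272 and 0 CPM in Col-0 roots. The ratio was 67.6, with a 95% counting interval of 22.7 to 332. AT1G20680, annotated as a transport and Golgi organization-like protein, had 7.57, 5.38 and 5.90 CPM in 35S:rMYB83 roots, against 0.0862, 0.0905 and 0.121 CPM in Col-0 roots. These 3 genes were uniformly low in Col-0 and present in every 35S:rMYB83 library. AO4, an aldehyde oxidase, was less even at 2.46, 5.50 and 1.13 CPM in 35S:rMYB83 roots, against 0.0862, 0.0905 and 0.121 CPM in Col-0 roots. Its ratio was 31.5 (95% counting interval 10.3 to 156). AT2G39850, a subtilisin-like protease gene, had 25.4, 19.6 and 7.83 CPM in 35S:rMYB83 roots, against 1.12, 1.45 and 0.603 CPM in Col-0 roots, a log2 difference of 3.99 (SE 0.63, adjusted p = 0.00266).

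On the lower side, the largest fall was that of the nitrate transporter gene NRT2.5, described below. FPF1 and FLP1, which encode small proteins that promote flowering, were both close to absent from 35S:rMYB83 roots. FPF1 had 0, 0.122 and 0 CPM there, against 4.14, 12.1 and 11.3 CPM in Col-0 roots (199 times lower, 95% counting interval 35.4 to 7870). FLP1 had 0, 0.122 and 0 CPM, against 6.72, 10.6 and 7.71 CPM in Col-0 roots (186 times lower, interval 33.2 to 7390). GAMT2, which methylates gibberellins, had no read in 35S:rMYB83 roots, against 1.29, 2.17 and 3.49 CPM in Col-0 roots, a fall of at least 16.3-fold. AT5G38910, of the cupin family, had 0, 0 and 0.113 CPM in 35S:rMYB83 roots, against 11.6, 15.3 and 25.7 CPM in Col-0 roots (372 times lower, interval 66.5 to 14700). AT5G04120, of the phosphoglycerate mutase family, had 0.757, 1.35 and 0.908 CPM in 35S:rMYB83 roots, against 30.1, 185 and 100 CPM in Col-0 roots, a log2 difference of -6.65 (SE 0.72, adjusted p = 0.000399). The rule that picked the largest folds in each direction took only genes whose groups did not overlap, as held for 34.0% of all genes tested.

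Beside the genes that a fixed rule picked from each list, some members of the transport, signalling, clock and wall lists that had other known roles were named after their values were seen, among them SULTR1;1, SULTR2;1, LSU2, ATSDI1, BGLU28, SIR, AMT1;1, NRT2:1, GDH2, HAK5, SWEET14, LHY, PSK2 and PRX52.

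Genes of sulphate uptake, of its assimilation and of the response to sulphur deficiency made up the list with the highest share of changed members. Members and lists were chosen with earlier results of these data known, so this share describes the list and is no test of it. Of 27 listed genes 26 were tested, 20 fell, 1 rose and 5 did not pass, so 80.8% were called, against 16.4% of all genes tested. The median log2 difference was -1.36. Summed over the list, the level was 1519, 1443 and 1411 CPM in 35S:rMYB83 roots, against 2631, 2747 and 2770 CPM in Col-0 roots, with no overlap. The single gene that rose, AST56, a sulphate transporter, lost its call on leaving out any library except Col-0 replicate 1 (log2 difference 0.98, adjusted p = 0.0461 with all libraries), and with plain library totals.

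Sulphate transporters that fell act in uptake, in the vascular tissue and at the vacuole. SULTR1;1 (AT4G08620), a high-affinity transporter for uptake at the root surface, had 1.51, 2.2 and 2.5 CPM in 35S:rMYB83 roots, against 20.2, 27.6 and 18.3 CPM in Col-0 roots. Every 35S:rMYB83 value was far below the lowest Col-0 value, and the log2 difference was -3.37 (SE 0.26, adjusted p = 7.9e-05). SULTR4;1 (AT5G13550), which releases sulphate from the vacuole, had 50.0, 47.5 and 46.9 CPM in 35S:rMYB83 roots, against 154, 163 and 189 CPM in Col-0 roots. Its log2 difference of -1.81 (SE 0.09, adjusted p = 1.73e-05) was among the most precise of the comparison. SULTR2;1, a low-affinity transporter of the vascular tissue, had 29.1, 18.6 and 15.3 CPM in 35S:rMYB83 roots, against 95.6, 117 and 109 CPM in Col-0 roots (log2 difference -2.37, SE 0.39, adjusted p = 0.00318). SULTR1;2, the other uptake transporter, fell less, by 1.04 in log2 units (SE 0.20, adjusted p = 0.00732).

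Among the enzymes, APR1 (AT4G04610), which reduces activated sulphate, had 74.0, 67.6 and 61.3 CPM in 35S:rMYB83 roots, against 201, 202 and 203 CPM in Col-0 roots. The groups lay well apart, with a log2 difference of -1.58 (SE 0.09, adjusted p = 1.73e-05). Its relatives APR2 and APR3 fell by 0.87 (SE 0.18, adjusted p = 0.00888) and 1.02 (SE 0.12, adjusted p = 0.000676) in log2 units. APS1, an ATP sulfurylase that activates sulphate, fell by 0.87 (SE 0.10, adjusted p = 0.000456). The next enzyme of the pathway, sulphite reductase SIR, did not pass, at 257, 279 and 281 CPM in 35S:rMYB83 roots and 245, 217 and 240 CPM in Col-0 roots (log2 difference 0.22, adjusted p = 0.109).

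Some genes known as markers of sulphur deficiency fell further than the transporters and enzymes above. Not all did, and the values of LSU2 are given below. LSU1 (AT3G49580), named for its response to low sulphur, had 3.97, 1.71 and 0.908 CPM in 35S:rMYB83 roots, against 69.6, 79.5 and 64.5 CPM in Col-0 roots (log2 difference -5.15, SE 0.34, adjusted p = 4.19e-05). ATSDI1, a sulphur-deficiency-induced repeat protein, had 5.87, 2.57 and 0.908 CPM in 35S:rMYB83 roots, against 55.7, 99.2 and 86.8 CPM in Col-0 roots (log2 difference -4.83, SE 0.44, adjusted p = 0.000154). AT5G26220, a ChaC-like gene of the family that breaks down glutathione, had 2.84, 2.57 and 2.16 CPM in 35S:rMYB83 roots, against 37.1, 49.8 and 42.1 CPM in Col-0 roots. Its log2 difference was -4.10 (SE 0.23, adjusted p = 1.73e-05). In all 3 genes, each 35S:rMYB83 library was at least several-fold below each Col-0 library. BGLU28, a beta-glucosidase that hydrolyses glucosinolates, had 0.946, 0.122 and 0 CPM in 35S:rMYB83 roots, against 3.62, 13.3 and 9.16 CPM in Col-0 roots (log2 difference -4.89, SE 0.88, adjusted p = 0.00836).

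**Figure D2:**
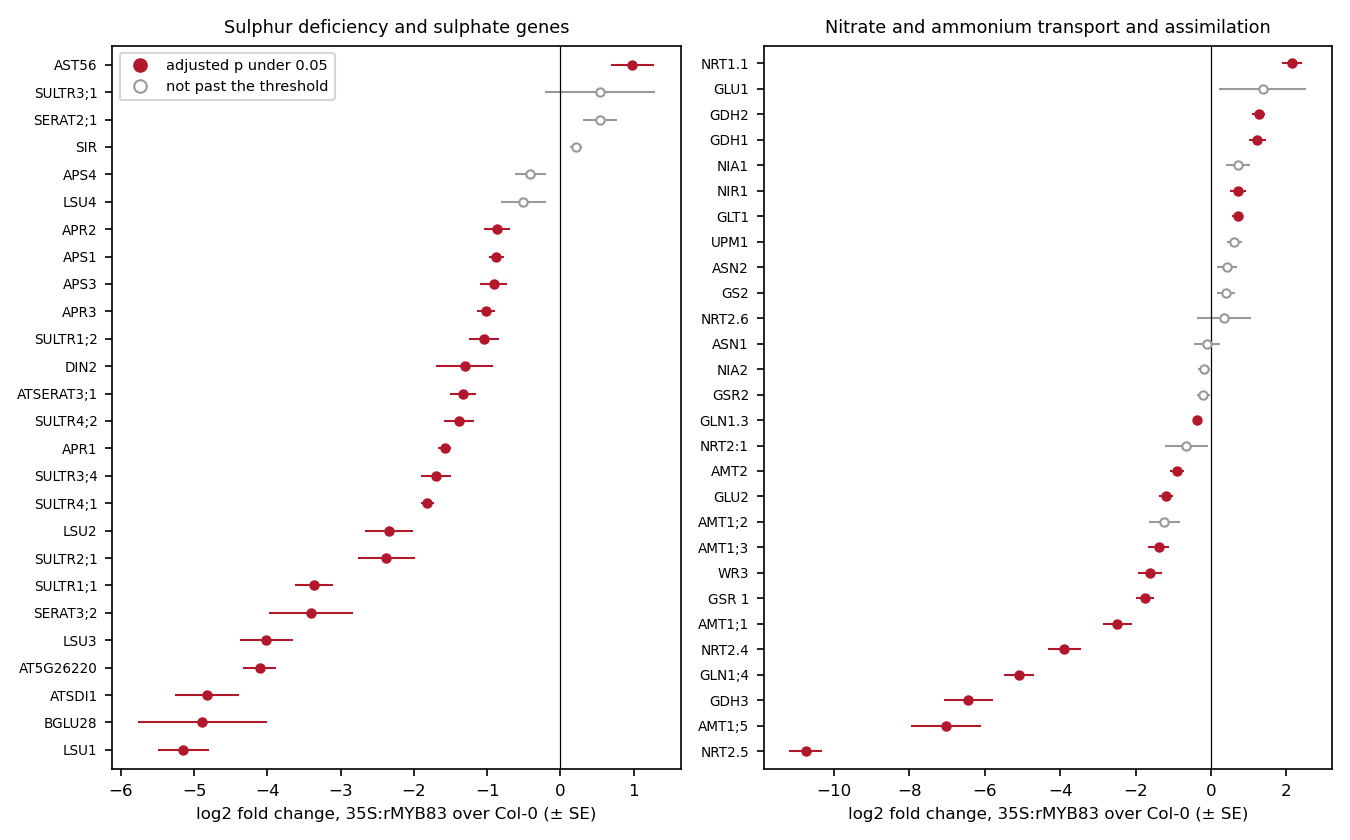
Log2 fold change of 35S:rMYB83 over Col-0 with its standard error for every tested member of the sulphur list (left, 26 genes) and of the nitrate and ammonium list (right, 28 genes); filled points passed the threshold. Sulphur genes lie almost all below 0, whereas nitrogen genes run from NRT2.5 at -10.74 to NRT1.1 at 2.14.

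Genes of nitrate and ammonium uptake and assimilation changed in both directions. Of 32 listed genes 28 were tested, 12 fell and 5 rose, or 60.7% called, with a median log2 difference of -0.29. Without Col-0 replicate 1, 9 rose, and without both replicate 1 libraries 8 rose. Among the members that fell are high-affinity transporters known to be induced when nitrogen is short. NRT2.5 (AT1G12940), a high-affinity nitrate transporter, had 0, 0.245 and 0 CPM in 35S:rMYB83 roots, against 135, 217 and 182 CPM in Col-0 roots. That is 2 reads against 5478, a ratio of 1970 times lower (95% counting interval 546 to 16300; adjusted p = 2.09e-05). NRT2.4, a second transporter of the same kind, had 0.568, 0.489 and 1.48 CPM in 35S:rMYB83 roots, against 8.53, 15.1 and 16.3 CPM in Col-0 roots (log2 difference -3.89, SE 0.44, adjusted p = 0.000458). NRT2:1, the main inducible high-affinity transporter of roots, did not pass: it had 32.2, 108 and 273 CPM in 35S:rMYB83 roots, against 212, 196 and 245 CPM in Col-0 roots, with a spread within 35S:rMYB83 that spanned the Col-0 values. WR3 (AT5G50200), the partner protein that these transporters need, fell by 1.62 in log2 units (SE 0.32, adjusted p = 0.00762).

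Of the ammonium transporters, 4 fell. AMT1;5 had 0.189, 0.367 and 0 CPM in 35S:rMYB83 roots, against 8.53, 43.2 and 24.5 CPM in Col-0 roots (log2 difference -7.03, SE 0.93, adjusted p = 0.00225). AMT1;1 had 1.70, 1.59 and 2.84 CPM in 35S:rMYB83 roots, against 6.20, 15.3 and 13.7 CPM in Col-0 roots (log2 difference -2.48, SE 0.39, adjusted p = 0.00246). AMT1;3 fell by 1.39 (SE 0.28, adjusted p = 0.00843) and AMT2 fell by 0.91 (SE 0.19, adjusted p = 0.00909) in log2 units. Replicate 1 was the lowest of the Col-0 libraries for each of these 4 genes.

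Of the enzymes that bind ammonium into amino acids, both glutamine synthetases named here fell. GLN1;4 (AT5G16570), a cytosolic glutamine synthetase, had 6.25, 8.32 and 6.24 CPM in 35S:rMYB83 roots, against 128, 351 and 231 CPM in Col-0 roots (log2 difference -5.08, SE 0.40, adjusted p = 8.44e-05). GSR 1 (AT5G37600), another glutamine synthetase of the cytosol, had 194, 215 and 223 CPM in 35S:rMYB83 roots, against 437, 964 and 738 CPM in Col-0 roots (log2 difference -1.76, SE 0.23, adjusted p = 0.00114). The 3 genes for glutamate dehydrogenase, which releases ammonium from glutamate, did not move together. GDH3 had 0, 0.122 and 0.227 CPM in 35S:rMYB83 roots, against 6.03, 19.3 and 13.1 CPM in Col-0 roots (94.1 times lower, 95% counting interval 31.9 to 458). GDH2 had 433, 472 and 533 CPM in 35S:rMYB83 roots, against 183, 188 and 227 CPM in Col-0 roots (log2 difference 1.27, SE 0.17, adjusted p = 0.00121). GDH1 rose by 1.23 in log2 units (SE 0.22, adjusted p = 0.00522). The nitrate reductase genes did not pass, with log2 differences of 0.72 for NIA1 (adjusted p = 0.157) and -0.19 for NIA2 (adjusted p = 0.495).

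In the transporter family that holds the low-affinity nitrate carriers, 27 genes were listed, 22 were tested, 6 fell and 1 rose (31.8% called, median log2 difference -0.29), and 10 fell without Col-0 replicate 1. The gene that rose was NRT1.1 (AT1G12110), a nitrate transporter and sensor, which is counted in both nitrogen lists. Its values were 57.4, 102 and 59.0 CPM in 35S:rMYB83 roots, against 12.1, 17.2 and 20.5 CPM in Col-0 roots, with no overlap and a log2 difference of 2.14 (SE 0.26, adjusted p = 0.000716). NRT1.8, which draws nitrate back out of the xylem sap, had 45.6, 32.0 and 34.7 CPM in 35S:rMYB83 roots, against 120, 108 and 113 CPM in Col-0 roots (log2 difference -1.61, SE 0.21, adjusted p = 0.00107). CIPK23, a kinase that acts on NRT1.1 and on potassium transporters, had 166, 164 and 131 CPM in 35S:rMYB83 roots, against 74.4, 57.2 and 91.0 CPM in Col-0 roots (log2 difference 1.05, SE 0.18, adjusted p = 0.00408).

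Regulators tied to nitrate supply were among the genes that changed. LBD38 and LBD39 are nitrate-induced repressors of nitrogen-responsive genes. LBD38 (AT3G49940) had 111, 103 and 104 CPM in 35S:rMYB83 roots, against 39.3, 22.0 and 38.8 CPM in Col-0 roots (log2 difference 1.67, SE 0.20, adjusted p = 0.00064). LBD39 rose by 1.24 in log2 units (SE 0.24, adjusted p = 0.00781). Of 40 genes for LBD factors 17 were tested, 4 rose and 1 fell (29.4% called, median log2 difference 0.04), and 2 fell without Col-0 replicate 2. AT3G59580, of the RWP-RK family to which regulators of the nitrate response belong, had 0.379, 0 and 0.113 CPM in 35S:rMYB83 roots, against 13.7, 62.8 and 40.9 CPM in Col-0 roots (286 times lower, 95% counting interval 97.5 to 1390). IPT3, a cytokinin synthesis gene of the phloem that responds to nitrate, had 20.3, 20.9 and 18.2 CPM in 35S:rMYB83 roots, against 10.2, 4.17 and 6.15 CPM in Col-0 roots (log2 difference 1.52, SE 0.26, adjusted p = 0.00386).

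Genes of phosphate starvation changed in both directions. Of 29 listed, 21 were tested, 7 rose and 4 fell (52.4% called, median log2 difference 0.29). The count that rose was 3 without 35S:rMYB83 replicate 1, 2 without 35S:rMYB83 replicate 2 and 3 without Col-0 replicate 2 or 3, and the count that fell was 1 without 35S:rMYB83 replicate 2 or 3 or Col-0 replicate 2 or 3. Plain library totals gave 4 higher. The clearest was AT5G03545, a phosphate-starvation transcript, with 72.3, 74.0 and 54.0 CPM in 35S:rMYB83 roots, against 15.7, 10.6 and 11 CPM in Col-0 roots (log2 difference 2.42, SE 0.21, adjusted p = 0.000132). SRG3 (AT3G02040), a glycerophosphodiester phosphodiesterase, rose by 1.39 in log2 units (SE 0.20, adjusted p = 0.00166). MGD2, which makes galactolipids that stand in for phospholipids, fell by 1.48 (SE 0.30, adjusted p = 0.00914). Of 28 tested genes of iron uptake and coumarin release, 1 rose and 1 fell (7.14%), under the share over all genes. The 1 that fell, the vacuolar iron transporter-like gene AT1G21140, had a log2 difference of -1.45 (SE 0.19, adjusted p = 0.00101), and the call of the 1 that rose, FRO2, was lost on leaving out any library except Col-0 replicate 1 (adjusted p = 0.0444 with all), with library totals and with the replicate number as a block, where 2 genes of the list fell.

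Among 110 genes for potassium and calcium channels, pumps and exchangers, 80 were tested, 21 fell and 5 rose (32.5% called, median log2 difference -0.11). HAK5 (AT4G13420), the high-affinity potassium transporter known to be induced by potassium shortage, had 1.14, 6.24 and 2.04 CPM in 35S:rMYB83 roots, against 23.4, 158 and 111 CPM in Col-0 roots (log2 difference -4.88, SE 0.76, adjusted p = 0.00243). GORK, an outward potassium channel, fell by 1.15 in log2 units (SE 0.15, adjusted p = 0.000907). The cation exchanger CHX16 fell by 1.61 (SE 0.19, adjusted p = 0.000669). AT3G63380, a calcium pump of the E1-E2 ATPase type, had 20.4, 29.0 and 27.7 CPM in 35S:rMYB83 roots, against 102, 115 and 145 CPM in Col-0 roots (log2 difference -2.22, SE 0.18, adjusted p = 0.000108). Glutamate receptor-like channels fell too, ATGLR1.2 by 3.51 (SE 0.29, adjusted p = 0.000109) and GLR2.5 by 2.00 (SE 0.24, adjusted p = 0.000661). By contrast, CAX3 (AT3G51860), which loads calcium into the vacuole, had 68.9, 70.9 and 61.6 CPM in 35S:rMYB83 roots, against 24.6, 20.8 and 27.5 CPM in Col-0 roots (log2 difference 1.47, SE 0.12, adjusted p = 9.21e-05).

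Aquaporins, the water channels of the plasma membrane and the tonoplast, held more genes that rose than fell. Of 34 genes 29 were tested, 10 rose and 3 fell (44.8% called, median log2 difference 0.22), and the sum over the list was 7389, 8314 and 6974 CPM in 35S:rMYB83 roots, against 4392, 4811 and 4771 CPM in Col-0 roots. Without 35S:rMYB83 replicate 2, 5 rose, and 6 fell without Col-0 replicate 1. With plain library totals 5 fell. PIP1;5 (AT4G23400), a plasma membrane channel, had 775, 848 and 659 CPM in 35S:rMYB83 roots, against 97.6, 137 and 130 CPM in Col-0 roots. No other aquaporin changed as far, and the log2 difference was 2.65 (SE 0.16, adjusted p = 2.26e-05). GAMMA-TIP (AT2G36830), a tonoplast channel, had 854, 927 and 876 CPM in 35S:rMYB83 roots, against 446, 394 and 491 CPM in Col-0 roots (log2 difference 1.0, SE 0.13, adjusted p = 0.0012). TIP2 (AT3G26520), a close relative, rose by 1.01 in log2 units (SE 0.14, adjusted p = 0.00119). NIP6;1, known as a channel for boric acid, was lower at 3.79, 1.35 and 1.13 CPM in 35S:rMYB83 roots and 8.53, 15.7 and 10.7 CPM in Col-0 roots (log2 difference -2.58, SE 0.41, adjusted p = 0.00251). Closely related aquaporins can share reads, and how the authors' counting dealt with reads of more than 1 locus was not stated in the labels used here.

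Sugar transporters changed in both directions, with 7 higher and 8 lower of 24 tested out of 44 (62.5% called, median log2 difference -0.11). Without 35S:rMYB83 replicate 1 or replicate 2, 4 were higher. The SWEET family, which lets sucrose or hexoses out of cells, was split. SWEET12 (AT5G23660) had 38.4, 41.2 and 52.2 CPM in 35S:rMYB83 roots, against 8.79, 6.70 and 10.4 CPM in Col-0 roots (log2 difference 2.36, SE 0.20, adjusted p = 0.000119). SWEET11, its partner in sucrose export, had 60.8, 68.9 and 62.7 CPM in 35S:rMYB83 roots, against 21.4, 25.7 and 26.1 CPM in Col-0 roots (log2 difference 1.4, SE 0.19, adjusted p = 0.00128). SWEET14, a relative, had 0.189, 0.367 and 0.113 CPM in 35S:rMYB83 roots, against 2.15, 20.6 and 11.3 CPM in Col-0 roots (log2 difference -5.57, SE 0.96, adjusted p = 0.00405). STP7, a monosaccharide carrier, rose by 1.18 in log2 units (SE 0.13, adjusted p = 0.000403), and ESL1, a vacuolar sugar exporter, fell by 1.16 (SE 0.13, adjusted p = 0.000424).

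SUC2, which loads sucrose into the phloem, had 55.3, 50.9 and 64.0 CPM in 35S:rMYB83 roots, against 95.7, 98.5 and 158 CPM in Col-0 roots (log2 difference -1.05, SE 0.19, adjusted p = 0.00524). It is also 1 of 21 phloem markers, of which 19 were tested, 6 fell and 1 rose (36.8% called, median log2 difference -0.17). The marker that rose, the phloem lectin gene PP2-A1, did not pass without 35S:rMYB83 replicate 3, without Col-0 replicate 2 or with library totals, and 2 markers rose with the replicate block or by DESeq2. The phloem markers summed to 597.7, 650.9 and 699.9 CPM in 35S:rMYB83 roots, against 677.1, 826.5 and 901.5 CPM in Col-0 roots, with overlapping groups. NAKR1, a phloem protein needed for sodium, potassium and sugar transport, fell by 1.15 in log2 units (SE 0.14, adjusted p = 0.000742). The part of phloem cell number in the sugar transporter values was not tested. The calls of SWEET11, SWEET12 and SUC2 all held with both replicate 1 libraries, those richest in shoot markers, left out.

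**Figure D3:**
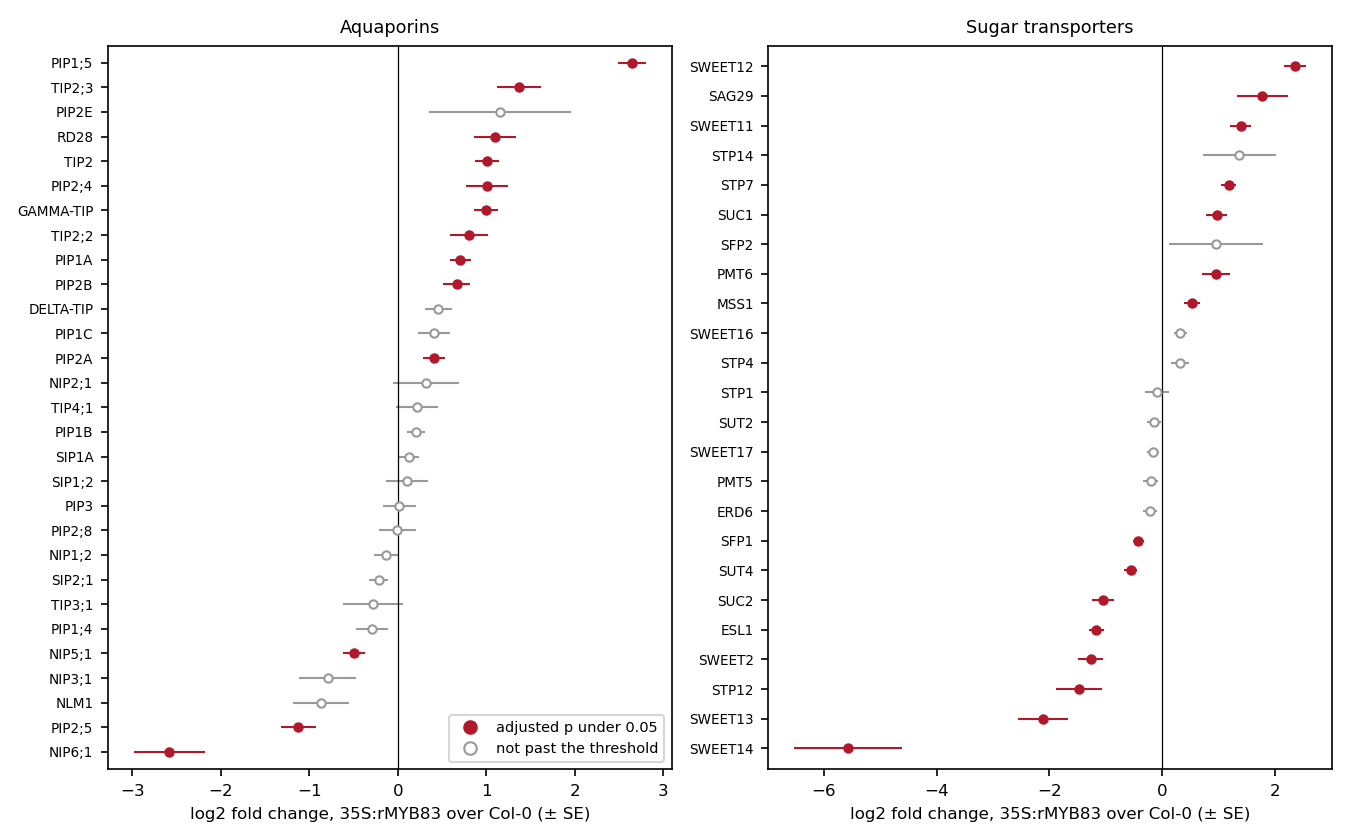
Log2 fold change of 35S:rMYB83 over Col-0 with its standard error for the 29 tested aquaporins (left) and the 24 tested sugar transporters (right); filled points passed the threshold. Most called aquaporins lie to the right of 0, with PIP1;5 at 2.65, and sugar transporters lie on both sides, from SWEET14 at -5.57 to SWEET12 at 2.36.

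Of 127 ABC transporters 102 were tested, 17 fell and 5 rose (21.6% called, median log2 difference -0.06). The count that fell was 8 without 35S:rMYB83 replicate 1, 11 without 35S:rMYB83 replicate 2, 10 without 35S:rMYB83 replicate 3 and 9 without Col-0 replicate 2 or 3. The count that rose was 0 to 3 on leaving out each of those libraries and 1 with library totals. ABCG25, an exporter of abscisic acid, had 32.2, 37.6 and 28.8 CPM in 35S:rMYB83 roots, against 76.6, 77.4 and 78.1 CPM in Col-0 roots (log2 difference -1.24, SE 0.10, adjusted p = 0.000104), and every 35S:rMYB83 value lay under every Col-0 value.

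Clock genes had 12 of 22 members past the threshold (54.5%), 7 higher and 5 lower, with a median log2 difference of 0.01. Without 35S:rMYB83 replicate 2, 4 were higher and 2 lower. The lower count was 3 without 35S:rMYB83 replicate 3 and 2 without Col-0 replicate 2 or 3. Components of the evening complex, which represses daytime genes at dusk, were higher. ELF4 (AT2G40080) had 148, 165 and 129 CPM in 35S:rMYB83 roots, against 38.9, 36.9 and 51.1 CPM in Col-0 roots (log2 difference 1.81, SE 0.23, adjusted p = 0.000968). PCL1 (AT3G46640), also called LUX, the DNA-binding subunit, had 99.0, 104 and 97.1 CPM in 35S:rMYB83 roots, against 51.5, 53.9 and 54.5 CPM in Col-0 roots (log2 difference 0.91, SE 0.14, adjusted p = 0.00221). BOA, its close relative, had 14.2, 13.0 and 15.1 CPM in 35S:rMYB83 roots, against 2.67, 2.81 and 4.82 CPM in Col-0 roots (log2 difference 2.06, SE 0.26, adjusted p = 0.000884). LHY, a morning factor, was lower at 5.68, 2.94 and 2.16 CPM in 35S:rMYB83 roots, against 9.48, 15.6 and 14.8 CPM in Col-0 roots (log2 difference -1.94, SE 0.38, adjusted p = 0.00755). CDF3, a morning-expressed DOF factor, fell by 1.56 in log2 units (SE 0.30, adjusted p = 0.00665). The labels give no time of day for the harvests, so the hour of sampling and the genotype cannot be told apart for these genes.

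Transcription factor families mostly held more genes that fell than genes that rose. The same was true over all genes tested, with 9.73% lower and 6.70% higher. Of 124 R2R3 MYB genes besides MYB83, 79 were tested, 17 fell and 5 rose (27.8% called, median log2 difference -0.23). Without Col-0 replicate 2, 11 fell. The count that rose was 2 without 35S:rMYB83 replicate 1 and 3 without 35S:rMYB83 replicate 2, Col-0 replicate 2 or Col-0 replicate 3. MYB108 (AT3G06490), known from wound and pathogen responses, had 0.568, 0.612 and 0.681 CPM in 35S:rMYB83 roots, against 8.88, 5.07 and 9.16 CPM in Col-0 roots (log2 difference -3.59, SE 0.33, adjusted p = 0.000167). MYB19 fell by 2.87 in log2 units (SE 0.39, adjusted p = 0.00136). Its values stayed at or under 1.22 CPM in 35S:rMYB83 roots, against 4.05 to 9.87 CPM in Col-0 roots.

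Of 100 NAC genes 73 were tested, 19 fell and 2 rose (28.8% called, median log2 difference -0.15), with 11 that fell without 35S:rMYB83 replicate 3, 1 that rose without 35S:rMYB83 replicate 1, and 0 that rose without 35S:rMYB83 replicate 3, Col-0 replicate 2 or Col-0 replicate 3. ANAC087, a regulator of developmental cell death in the root cap, had 25.6, 25.4 and 17.7 CPM in 35S:rMYB83 roots, against 43.6, 50.5 and 59.2 CPM in Col-0 roots (log2 difference -1.16, SE 0.17, adjusted p = 0.00166). NAC074 fell by 2.02 in log2 units (SE 0.31, adjusted p = 0.00216). Of 53 bZIP genes 39 were tested, 8 fell and 2 rose (25.6% called, median log2 difference -0.11). FD (AT4G35900), the partner of the flowering signal FT, had 4.54, 6.85 and 5.22 CPM in 35S:rMYB83 roots, against 17.3, 18.9 and 19.8 CPM in Col-0 roots (log2 difference -1.73, SE 0.17, adjusted p = 0.000244). BZIP27, its paralog, fell by 2.33 (SE 0.28, adjusted p = 0.000663). BZO2H3, which acts in the response to low energy, rose by 1.05 (SE 0.14, adjusted p = 0.000951).

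Of 138 bHLH genes 94 were tested, 16 fell and 3 rose (20.2% called, median log2 difference -0.07). None rose without 35S:rMYB83 replicate 2, 1 rose once Col-0 replicate 3 was left out, and 5 once Col-0 replicate 1 was. The shares of WRKY and ERF genes called were near that over all genes, 16.4%. Of 60 WRKY genes tested, 10 fell and 1 rose (18.3%, median log2 difference -0.21). The count that fell was 5 without 35S:rMYB83 replicate 3 and 6 without Col-0 replicate 3, 2 rose without 35S:rMYB83 replicate 1 or Col-0 replicate 2, and 3 rose without Col-0 replicate 1 or 3. Library totals gave 16 that fell. WRKY54, a negative regulator of senescence, had 2.08, 2.45 and 2.5 CPM in 35S:rMYB83 roots, against 11.3, 23.9 and 23.5 CPM in Col-0 roots (log2 difference -3.04, SE 0.34, adjusted p = 0.000459). Of 54 ERF and DREB genes tested, 4 rose and 4 fell (14.8%, median log2 difference 0.15). With the replicate number as a block 7 rose, and without Col-0 replicate 1 9 rose. The count that fell was 1 to 2 on leaving out any 35S:rMYB83 library or Col-0 replicate 3. EBP (AT3G16770), a group VII ERF, had 461, 378 and 415 CPM in 35S:rMYB83 roots, against 117, 82.4 and 126 CPM in Col-0 roots (log2 difference 1.95, SE 0.15, adjusted p = 9.21e-05).

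Small signalling peptides changed in both directions. Of 84 genes for CLE, RALF, phytosulfokine and similar peptides 39 were tested, 8 rose and 5 fell (33.3% called, median log2 difference 0.03). The count that fell was 3 without 35S:rMYB83 replicate 2 or 3 or without Col-0 replicate 2. With plain library totals 8 rose and 9 fell. At an unadjusted p under 0.05, 11 were higher and 11 lower. PSK4 (AT3G49780), a precursor of the growth peptide phytosulfokine, had 154, 163 and 184 CPM in 35S:rMYB83 roots, against 30.3, 28.3 and 50.1 CPM in Col-0 roots (log2 difference 2.21, SE 0.25, adjusted p = 0.000449). PSK2, a second precursor, had 98.8, 104 and 97.6 CPM in 35S:rMYB83 roots, against 47.4, 24.0 and 43.9 CPM in Col-0 roots (log2 difference 1.39, SE 0.23, adjusted p = 0.00329). CLE2, which encodes a peptide of the CLAVATA3 kind, had 19.9, 14.1 and 18.3 CPM in 35S:rMYB83 roots, against 4.91, 3.98 and 6.27 CPM in Col-0 roots (log2 difference 1.79, SE 0.18, adjusted p = 0.000288). CLE5 rose by 2.94 (SE 0.40, adjusted p = 0.00133) and CLE6 by 1.67 (SE 0.26, adjusted p = 0.00239) in log2 units. CLE5 and CLE6 are neighbours of closely similar sequence, so reads may be shared between them.

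Abscisic acid genes were called in 45.8% of 24 tested members out of 35, with 8 lower and 3 higher and a median log2 difference of -0.33. The lower count was 4 without 35S:rMYB83 replicate 3 and 5 without Col-0 replicate 2, and the higher count was 1 without 35S:rMYB83 replicate 1 or 2 or Col-0 replicate 3. CYP707A1 (AT4G19230), which breaks down abscisic acid, had 8.14, 15.8 and 9.53 CPM in 35S:rMYB83 roots, against 30.8, 52.6 and 52.8 CPM in Col-0 roots (log2 difference -2.0, SE 0.37, adjusted p = 0.00542). LTI78, a classic drought and cold response gene, had 26.5, 35.0 and 25.0 CPM in 35S:rMYB83 roots, against 76.4, 61.5 and 67.5 CPM in Col-0 roots (log2 difference -1.25, SE 0.20, adjusted p = 0.00266). HAB2, a phosphatase that holds the pathway off, fell by 0.62 (SE 0.09, adjusted p = 0.002), and the drought-induced gene DI21 rose by 0.68 (SE 0.12, adjusted p = 0.0051).

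For auxin, 59 of 118 listed response genes were tested, 14 fell and 4 rose (30.5% called, median log2 difference -0.14), with 9 that fell without 35S:rMYB83 replicate 1 or 2 or Col-0 replicate 3. GH3.17, which couples auxin to glutamate, had 119, 149 and 111 CPM in 35S:rMYB83 roots, against 222, 328 and 322 CPM in Col-0 roots (log2 difference -1.20, SE 0.19, adjusted p = 0.00259). The small auxin-up gene AT4G00880 fell by 1.62 (SE 0.19, adjusted p = 0.000586). Cytokinin genes had 3 higher and 4 lower of 22 tested (31.8% called, median log2 difference -0.14), and 5 were higher without Col-0 replicate 1. CYP735A2, which makes trans-zeatin forms, had 27.4, 33.6 and 34.3 CPM in 35S:rMYB83 roots, against 13.3, 12.9 and 12.9 CPM in Col-0 roots (log2 difference 1.29, SE 0.15, adjusted p = 0.000618). LOG7, which activates cytokinin, fell by 0.88 (SE 0.13, adjusted p = 0.00189).

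Of 25 gibberellin genes tested 3 were higher and 2 lower (median log2 difference 0.11). With only both groups in the fit 4 were lower, and DESeq2 called 5 higher. GA2OX2, which inactivates gibberellin, had 11.5, 8.68 and 8.40 CPM in 35S:rMYB83 roots, against 2.59, 3.17 and 2.41 CPM in Col-0 roots (log2 difference 1.79, SE 0.20, adjusted p = 0.000438). The receptor gene GID1B fell by 0.83 (SE 0.11, adjusted p = 0.00144). Of 35 jasmonate genes 6 fell and none rose by edgeR or DESeq2 (17.1% called, with 3 higher at an unadjusted p under 0.05). That share was near the 16.4% called over all genes tested. The count that fell was 3 without 35S:rMYB83 replicate 2 or 3 or Col-0 replicate 3. The count that rose was 4 without Col-0 replicate 1, 1 without 35S:rMYB83 replicate 3 and 2 with the replicate number as a block. Repressors of the pathway were among those that fell, JAZ4 at -1.27 (SE 0.19, adjusted p = 0.00224) and JAZ3 at -0.83 (SE 0.15, adjusted p = 0.00562).

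**Figure D4:**
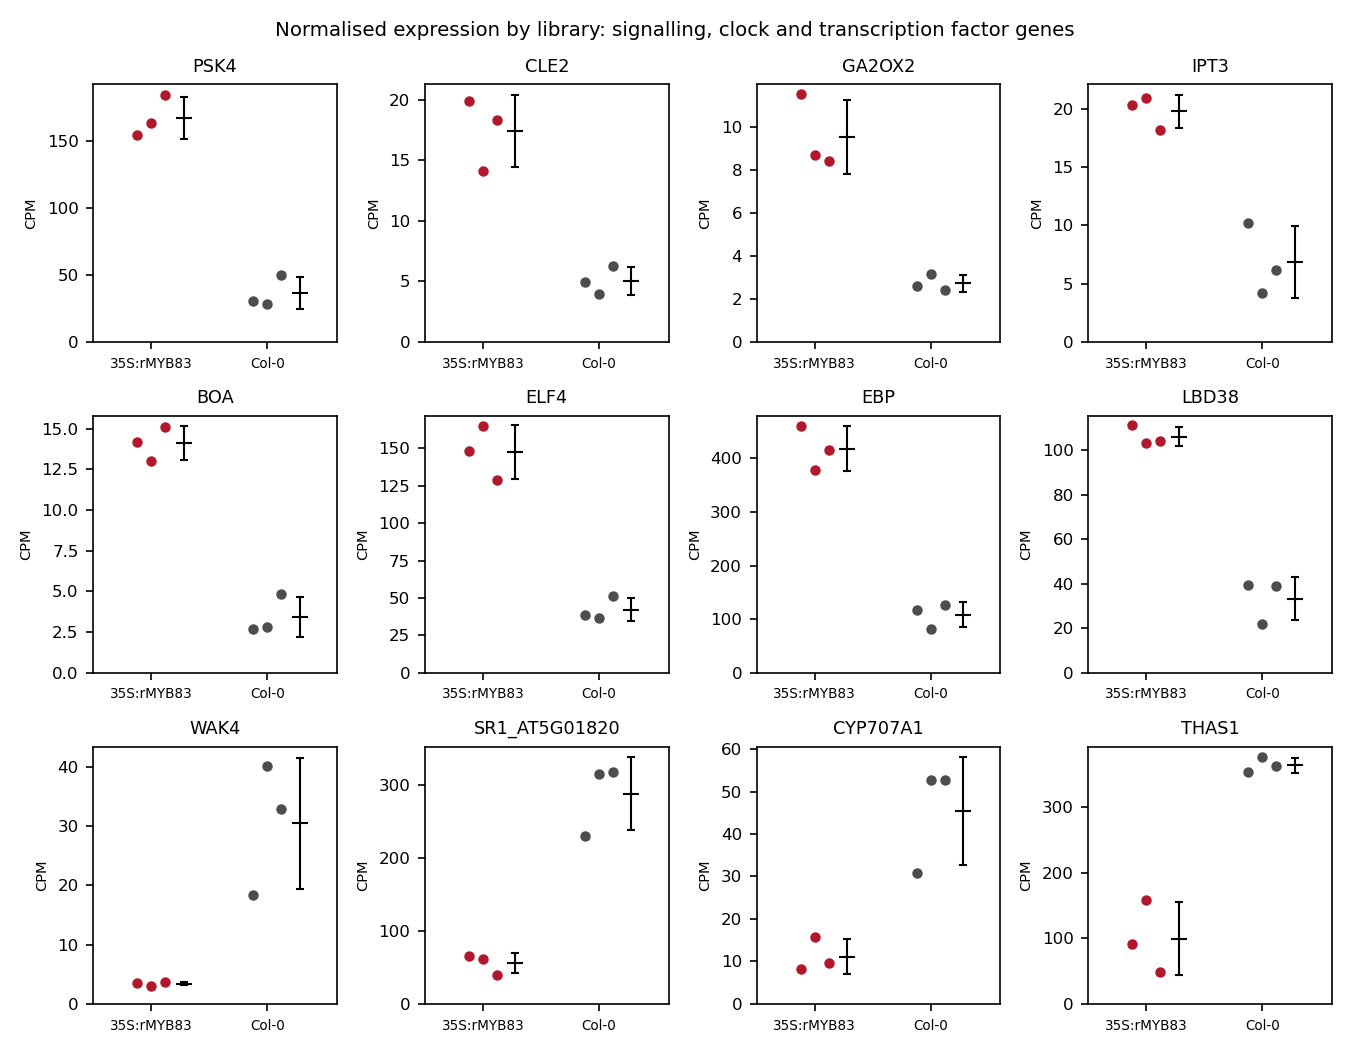
CPM in each library for 12 genes of signalling, the clock, transcription and triterpene synthesis, in 35S:rMYB83 (red, left) and Col-0 (grey, right) roots; bars give the mean and SD of 3 libraries, and each axis starts at 0. The groups do not overlap for any of the 12, as they do not for 34.0% of all genes tested, with 35S:rMYB83 higher in the upper 8 panels and lower in the bottom 4.

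Receptor kinases with cysteine-rich or wall-associated outer domains fell more often than they rose: of 55 listed 31 were tested, 9 fell and 3 rose (38.7% called, median log2 difference -0.36). None rose without 35S:rMYB83 replicate 1 or 2 or Col-0 replicate 2, or with plain library totals. WAK4, which binds pectin, had 3.60, 3.06 and 3.63 CPM in 35S:rMYB83 roots, against 18.4, 40.1 and 32.9 CPM in Col-0 roots (log2 difference -3.15, SE 0.31, adjusted p = 0.000228). CRK5 had 0.189, 1.1 and 0.794 CPM in 35S:rMYB83 roots, against 5.52, 7.97 and 6.63 CPM in Col-0 roots (log2 difference -3.14, SE 0.39, adjusted p = 0.000746). Among calcium sensors and the kinases they control, 9 of 63 tested fell and 3 rose (19.0% called, against 16.4% of all genes tested, median log2 difference 0.07). The count that rose was 1 without 35S:rMYB83 replicate 2 or 3 and 5 without Col-0 replicate 3. SR1_AT5G01820 (CIPK14) had 65.3, 61.5 and 40.2 CPM in 35S:rMYB83 roots, against 230, 315 and 318 CPM in Col-0 roots (log2 difference -2.37, SE 0.23, adjusted p = 0.000207). CIPK4 fell by 1.44 (SE 0.13, adjusted p = 0.000156) and CIPK17 by 3.35 (SE 0.33, adjusted p = 0.000235).

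Genes of specialised metabolism held large changes in single members. In the cytochrome P450 family, 158 of 234 were tested, 26 fell and 16 rose (26.6% called, median log2 difference -0.03), and 8 rose without 35S:rMYB83 replicate 2. CYP82C2, which hydroxylates an indole defence compound, had 0, 0.734 and 0.794 CPM in 35S:rMYB83 roots, against 26.1, 38.4 and 56.8 CPM in Col-0 roots (log2 difference -6.09, SE 0.54, adjusted p = 0.000132). CYP71A12, which acts earlier in the same indole pathway, had 7.57, 3.91 and 7.94 CPM in 35S:rMYB83 roots, against 124, 154 and 228 CPM in Col-0 roots (log2 difference -4.71, SE 0.36, adjusted p = 7.9e-05). CYP81F2, which modifies indole glucosinolates, fell by 2.23 (SE 0.24, adjusted p = 0.00035). CYP71B9 rose to 10.2, 8.44 and 4.88 CPM in 35S:rMYB83 roots, against 0.948, 0.724 and 1.33 CPM in Col-0 roots (log2 difference 2.97, SE 0.44, adjusted p = 0.00195). In the list of glucosinolate and camalexin genes as a whole, 4 fell and 1 rose of 30 tested (16.7%), close to the share over all genes, and 10 rose without Col-0 replicate 1, 3 by DESeq2 and 2 with the replicate block.

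Root triterpene genes had 3 lower and 1 higher of 10 tested (median log2 difference -0.54), and 5 lower without 35S:rMYB83 replicate 2. THAS1, the thalianol synthase, had 91.0, 159 and 49.1 CPM in 35S:rMYB83 roots, against 353, 376 and 363 CPM in Col-0 roots (log2 difference -1.87, SE 0.33, adjusted p = 0.00445). The 35S:rMYB83 libraries varied widely among themselves, and each was below every Col-0 library. Among the UDP-glycosyltransferases, which add sugars to small molecules, 9 rose and 8 fell of 48 tested (35.4%, median log2 difference 0.09). Without 35S:rMYB83 replicate 2, 5 rose, and 4 to 5 fell on leaving out 35S:rMYB83 replicate 1 or 3 or Col-0 replicate 2 or 3. UGT72E2, which glucosylates lignin precursors, had 155, 178 and 160 CPM in 35S:rMYB83 roots, against 371, 604 and 651 CPM in Col-0 roots (log2 difference -1.72, SE 0.19, adjusted p = 0.000459). UGT71D1 had 42.2, 45.7 and 42.9 CPM in 35S:rMYB83 roots, against 19.0, 19.5 and 18.9 CPM in Col-0 roots (log2 difference 1.19, SE 0.08, adjusted p = 5.19e-05). Of 43 glutathione transferases tested, 9 fell and 3 rose (27.9%, median log2 difference -0.07), with 5 lower without 35S:rMYB83 replicate 2 or Col-0 replicate 3 and 5 higher without 35S:rMYB83 replicate 3. GSTF14 had 82.1, 56.8 and 82.0 CPM in 35S:rMYB83 roots, against 11.2, 15.7 and 17.5 CPM in Col-0 roots (log2 difference 2.32, SE 0.19, adjusted p = 0.000104).

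Wall genes other than those of the secondary wall changed in both directions. Class III peroxidases, which use peroxide to cross-link or loosen walls, had 10 higher and 7 lower of 54 tested (31.5%, median log2 difference 0.02). The lower count was 11 with the replicate number as a block or with library totals, and 13 without Col-0 replicate 1. PRX52 (AT5G05340), known to act in lignin formation, had 30.1, 19.6 and 12.8 CPM in 35S:rMYB83 roots, against 5.17, 2.35 and 3.86 CPM in Col-0 roots (log2 difference 2.43, SE 0.45, adjusted p = 0.00548). AT2G37130 had 214, 290 and 307 CPM in 35S:rMYB83 roots, against 75.8, 93.2 and 128 CPM in Col-0 roots (log2 difference 1.45, SE 0.20, adjusted p = 0.00119). PRXR1, by contrast, fell by 1.06 (SE 0.16, adjusted p = 0.00196).

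Extensins, structural wall glycoproteins, took a large share of all reads. Summed over 61 genes they stood at 31930, 33550 and 30170 CPM in 35S:rMYB83 roots, against 20060, 19210 and 23790 CPM in Col-0 roots. The largest member was EXT3 (AT1G21310), needed for wall assembly in the embryo, at 18700, 19900 and 17400 CPM in 35S:rMYB83 roots, against 8180, 6040 and 8390 CPM in Col-0 roots (log2 difference 1.31, SE 0.19, adjusted p = 0.00166). Its 35S:rMYB83 values were all above those of Col-0. EXT4 rose by 1.07 (SE 0.19, adjusted p = 0.00425). The list's median was nonetheless -0.26, with 4 higher and 4 lower of 45 tested (17.8%, near the 16.4% over all genes tested). The lower count was 9 with the replicate block, 10 with library totals, 8 once Col-0 replicate 1 was left out and 2 once Col-0 replicate 3 was. AT1G26240, a proline-rich extensin-like gene, had 5.11, 2.57 and 5.33 CPM in 35S:rMYB83 roots, against 95.9, 85.5 and 197 CPM in Col-0 roots (log2 difference -4.87, SE 0.42, adjusted p = 0.000121). Extensins share repeats, so reads may be split among members.

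Expansins, which loosen walls, had 5 lower and 1 higher of 22 tested (27.3%, median log2 difference -0.20), with 3 lower without 35S:rMYB83 replicate 3. EXPB3 had 98.2, 154 and 132 CPM in 35S:rMYB83 roots, against 258, 376 and 320 CPM in Col-0 roots (log2 difference -1.31, SE 0.18, adjusted p = 0.00147). EXLB1 fell by 2.09 (SE 0.23, adjusted p = 0.000455). The 1 that rose lost its call on leaving out any library except Col-0 replicate 1. Suberin genes, which waterproof the endodermis, had 5 lower and none higher of 21 tested by edgeR (23.8%, median log2 difference -0.42), with 1 higher at an unadjusted p under 0.05 and 1 by DESeq2. The lower count was 3 without 35S:rMYB83 replicate 1 or 3 or Col-0 replicate 2 or 3, 10 without Col-0 replicate 1 and 9 with library totals. With the replicate block 8 were lower and 2 higher. FAR4, which makes the fatty alcohols of suberin, had 32.2, 36.1 and 22.8 CPM in 35S:rMYB83 roots, against 67.0, 134 and 85.1 CPM in Col-0 roots (log2 difference -1.65, SE 0.26, adjusted p = 0.00248). FACT (AT5G63560), which joins such alcohols to caffeic acid, fell by 1.38 (SE 0.23, adjusted p = 0.00311). The sum over the endodermis markers was 473.7, 515.5 and 445.2 CPM in 35S:rMYB83 roots, against 336.1, 454.8 and 415.9 CPM in Col-0 roots. Of these markers 1 of 12 rose (8.33%, under the 16.4% over all genes tested). Its call was lost on leaving out any library except Col-0 replicate 1, with library totals and with only both groups in the fit. With the replicate block 3 endodermis markers were higher, and DESeq2 and the fit without both replicate 1 libraries each gave 2.

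Ribosomal protein genes leaned higher by small amounts, and other genes of growth and of stress changed little or unevenly. Of 352 ribosomal protein genes tested, 134 were higher and 6 lower at an unadjusted p under 0.05. Over all 19496 genes tested, 5923 had an unadjusted p under 0.05 in either direction. Past the threshold, 43 ribosomal protein genes rose and 2 fell. That is 12.8% called, under the 16.4% over all genes tested, of which 6.70% rose and 9.73% fell. Their median log2 difference was 0.28, against 0.007 over all genes tested. The count that rose was 7 to 27 on leaving out any library but Col-0 replicate 1 (7 without 35S:rMYB83 replicate 3, 9 without Col-0 replicate 3, 15 without 35S:rMYB83 replicate 2, 19 without Col-0 replicate 2, 27 without 35S:rMYB83 replicate 1), and 67 without Col-0 replicate 1. With plain library totals 7 rose, and DESeq2 called 76 higher. RPS15A, of the small subunit, had 218, 246 and 266 CPM in 35S:rMYB83 roots, against 154, 148 and 137 CPM in Col-0 roots (log2 difference 0.73, SE 0.10, adjusted p = 0.00115). None of 29 genes for mitotic cyclins, their kinases and kinesins passed by edgeR or DESeq2 (median log2 difference -0.03), and none had an unadjusted p under 0.05. Of 48 heat shock factors and chaperones 6 fell and 1 rose (14.6%), but this balance depended on the fit. DESeq2 called 5 higher and 6 lower, 4 rose without both replicate 1 libraries, 3 without Col-0 replicate 1, 2 without 35S:rMYB83 replicate 3 or with the replicate block, and 0 with library totals. HSP70 (AT3G12580) had 48.1, 48.1 and 41.4 CPM in 35S:rMYB83 roots, against 99.9, 119 and 119 CPM in Col-0 roots (log2 difference -1.30, SE 0.16, adjusted p = 0.000645).

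The 35S:miR858 line gives a second transgenic root for the same genes. Both comparisons with Col-0 use the same 3 control libraries, so their values are set side by side and not correlated. NRT2.5 had 0, 0.245 and 0 CPM in 35S:rMYB83 roots and no read in the 3 35S:miR858 libraries, against 135 to 217 CPM in Col-0 roots. LSU2, of the low-sulphur family, had 30.5, 19.8 and 10.8 CPM in 35S:rMYB83 roots and 4.08, 1.79 and 2.04 CPM in 35S:miR858 roots, against 94.2, 118 and 90.5 CPM in Col-0 roots. AT5G26220 had 2.84, 2.57 and 2.16 CPM in 35S:rMYB83 roots and 0.120, 0.128 and 0.538 CPM in 35S:miR858 roots, against 37.1, 49.8 and 42.1 CPM in Col-0 roots. APR1 likewise had 42.1, 41.4 and 39.1 CPM in 35S:miR858 roots, and a log2 difference from Col-0 of -1.58 in 35S:rMYB83 and of -2.31 in 35S:miR858. For these nutrient genes both transgenic lines were below all 3 Col-0 libraries, and whether a trait of the shared Col-0 libraries plays a part was not tested.

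A direct contrast of 35S:rMYB83 minus 35S:miR858 called 789 genes, 4.05% of those tested, with 488 higher (2.50%) and 301 lower (1.54%) in 35S:rMYB83. Leaving out 1 library gave 238 to 464 higher and 84 to 279 lower: 313 and 96 without 35S:rMYB83 replicate 1, 263 and 102 without 35S:rMYB83 replicate 2, 238 and 84 without 35S:miR858 replicate 2, 310 higher without 35S:miR858 replicate 3 and 180 lower without 35S:rMYB83 replicate 3. Of 26 sulphur genes 4 were higher, among them LSU2 (log2 difference 2.91, adjusted p = 0.00462), AT5G26220 (3.11, adjusted p = 0.00402) and APR1 (0.73, adjusted p = 0.00277). The direct contrast thus separated the transgenic lines for genes that were low in both. Of 80 potassium and calcium genes 7 were higher than in 35S:miR858, and of 10 flavonoid enzymes 5 were. Against Col-0, 5 of the 80 potassium and calcium genes rose and 21 fell (median log2 difference -0.11). Of the 10 flavonoid enzymes, 1 rose against Col-0 and 0 fell (median log2 difference 0.69). That count of 1 was 0 without 35S:rMYB83 replicate 2 and 4 with only both groups in the fit. For these lists, the part of each transgenic line in the gap between them was not tested.

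Genes past the threshold against both Col-0 and 35S:miR858 in the same direction include several of those above. PIP1;5 had 775, 848 and 659 CPM in 35S:rMYB83 roots, 268, 335 and 288 CPM in 35S:miR858 roots and 97.6, 137 and 130 CPM in Col-0 roots, and the log2 difference of 35S:rMYB83 minus 35S:miR858 was 1.36 (SE 0.15, adjusted p = 0.00184). NRT1.1 had 22.0, 18.9 and 15.8 CPM in 35S:miR858 roots, close to its Col-0 values, and stood higher in 35S:rMYB83 by 1.95 (SE 0.26, adjusted p = 0.00409). NRT1.8 ran the other way, at 76.9, 109 and 143 CPM in 35S:miR858 roots, and was lower in 35S:rMYB83, with a log2 difference of -1.55 (SE 0.21, adjusted p = 0.00414). AT5G03545, the phosphate-starvation transcript, differed by 2.09 (SE 0.21, adjusted p = 0.00155). LBD4, a factor active in vascular development, had 47.9, 47.7 and 47.3 CPM in 35S:rMYB83 roots, 19.3, 10.6 and 11.7 CPM in 35S:miR858 roots and 15.3, 19.5 and 17.7 CPM in Col-0 roots (log2 difference from 35S:miR858 1.78, SE 0.20, adjusted p = 0.00184). In each of these 5 genes the values of 35S:rMYB83 overlapped with neither other genotype. For the largest of such genes, no overlap with Col-0 was part of the rule that picked them.

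Some genes were low in 35S:rMYB83 and not in the other genotypes. AT2G48090, an uncharacterized protein gene, had 0.946, 2.32 and 1.93 CPM in 35S:rMYB83 roots, 17.3, 11 and 11.3 CPM in 35S:miR858 roots and 19.4, 16.8 and 18.7 CPM in Col-0 roots (log2 difference from 35S:miR858 -2.85, SE 0.28, adjusted p = 0.00145). FD differed from 35S:miR858 by -1.43 (SE 0.17, adjusted p = 0.0028). For MYB108 the 35S:miR858 roots were intermediate, at 2.04, 2.56 and 1.83 CPM (log2 difference from 35S:miR858 -1.74, SE 0.37, adjusted p = 0.0309).

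**Figure D5:**
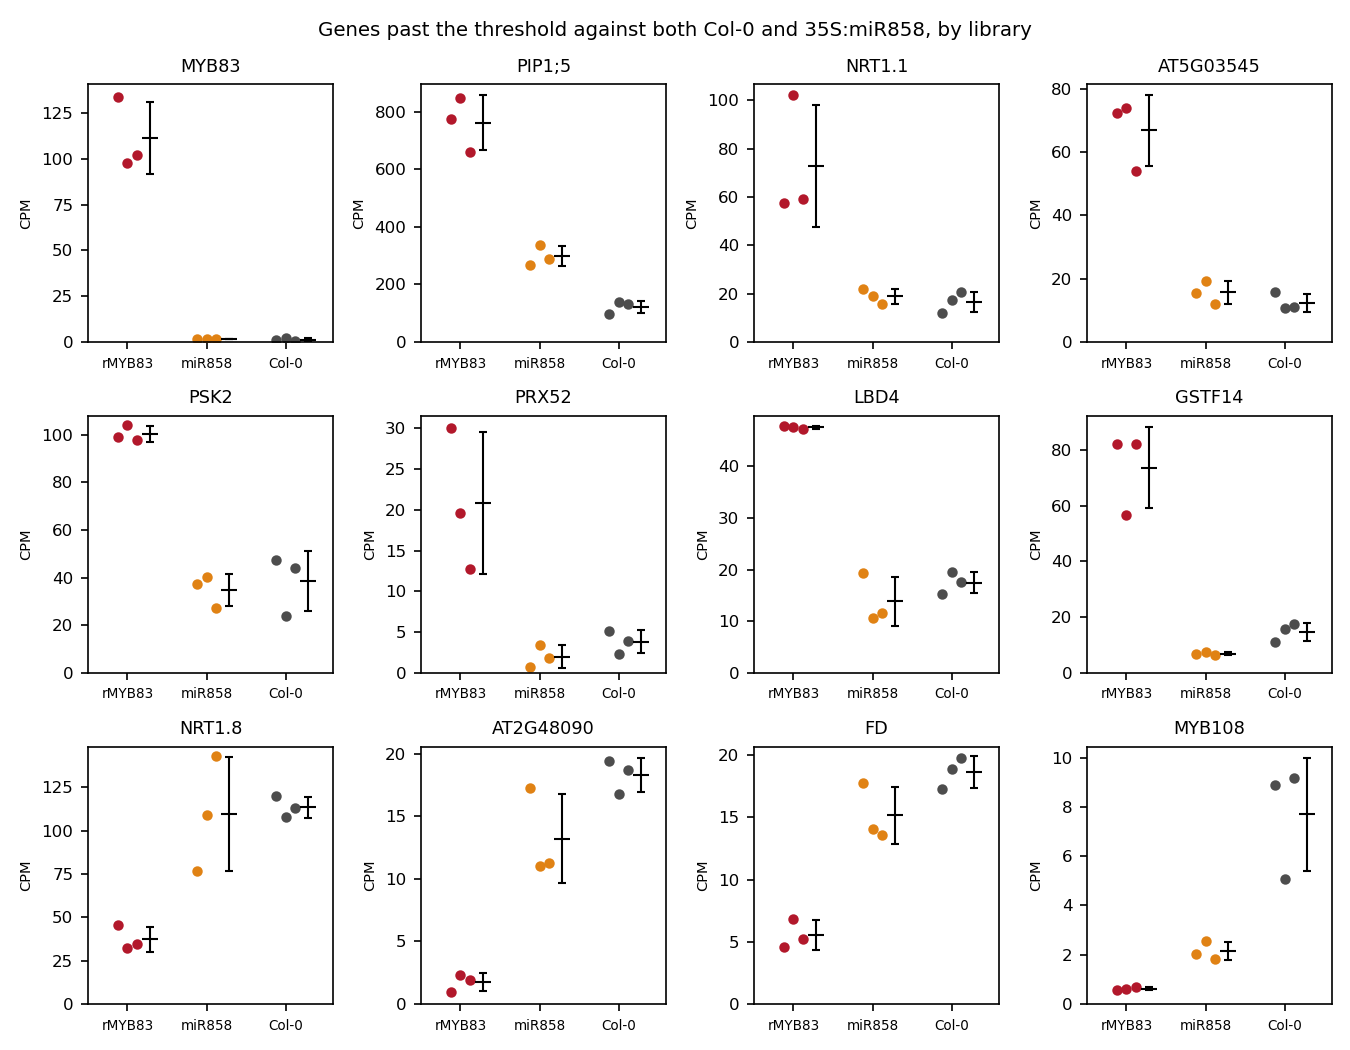
CPM in each library for 12 genes past the threshold against both other genotypes in the same direction, in 35S:rMYB83 (red, left), 35S:miR858 (orange, middle) and Col-0 (grey, right) roots; bars give the mean and SD of 3 libraries, and each axis starts at 0. The upper 8 panels show genes highest in 35S:rMYB83 and the bottom 4 show genes lowest in 35S:rMYB83.

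The letters of the element that MYB83 is known to bind were then looked for in the 300 bases upstream of each gene start. It was searched in its 8 spellings, printed on a line each, on both strands, and matches may overlap. At least 1 match was present for 36.2% of genes that rose (472 of 1305 with a promoter sequence) and 33.9% of genes that fell (643 of 1895), against 34.3% of all genes tested (6673 of 19480). For genes that changed at least 2-fold the shares were 39.3% of those that rose and 31.2% of those that fell. With 1000 bases, 75.2% of genes that rose and 74.2% of genes that fell had a match, against 73.7% of all genes tested.
Spelling 1: ACCAAAT
Spelling 2: ACCAAAC
Spelling 3: ACCAACT
Spelling 4: ACCAACC
Spelling 5: ACCTAAT
Spelling 6: ACCTAAC
Spelling 7: ACCTACT
Spelling 8: ACCTACC

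Promoters of a pair of genes that rose and a pair that fell are printed to show such matches, chosen after their values were seen and each 5′ to 3′ up to the base before the gene start, with matches in capitals (RefSeq, TAIR10.1). LBD38 lies downstream of chr3:18513966-18514265 on the plus strand and holds 3 matches, and PSK4 downstream of chr3:18465018-18465317 on the plus strand, with 2. CYP707A1 lies downstream of chr4:10520959-10521258 on the plus strand and holds 5, and AT5G26220 downstream of chr5:9164885-9165184 on the minus strand, with 3.
LBD38: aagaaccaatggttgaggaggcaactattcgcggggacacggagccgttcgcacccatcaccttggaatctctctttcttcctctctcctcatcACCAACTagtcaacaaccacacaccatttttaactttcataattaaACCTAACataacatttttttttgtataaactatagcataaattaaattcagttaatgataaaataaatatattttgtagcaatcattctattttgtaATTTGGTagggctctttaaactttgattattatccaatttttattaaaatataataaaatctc
PSK4: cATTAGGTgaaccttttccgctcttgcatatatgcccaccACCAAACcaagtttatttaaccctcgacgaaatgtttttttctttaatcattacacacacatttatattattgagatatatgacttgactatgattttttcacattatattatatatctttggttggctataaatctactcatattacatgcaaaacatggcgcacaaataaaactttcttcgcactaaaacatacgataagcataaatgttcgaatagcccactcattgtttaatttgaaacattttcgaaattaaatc
CYP707A1: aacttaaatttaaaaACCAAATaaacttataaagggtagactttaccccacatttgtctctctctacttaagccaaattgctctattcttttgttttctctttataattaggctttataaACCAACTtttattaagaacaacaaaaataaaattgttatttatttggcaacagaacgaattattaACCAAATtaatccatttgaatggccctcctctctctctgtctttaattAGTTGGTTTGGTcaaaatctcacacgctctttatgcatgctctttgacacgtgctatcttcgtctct
AT5G26220: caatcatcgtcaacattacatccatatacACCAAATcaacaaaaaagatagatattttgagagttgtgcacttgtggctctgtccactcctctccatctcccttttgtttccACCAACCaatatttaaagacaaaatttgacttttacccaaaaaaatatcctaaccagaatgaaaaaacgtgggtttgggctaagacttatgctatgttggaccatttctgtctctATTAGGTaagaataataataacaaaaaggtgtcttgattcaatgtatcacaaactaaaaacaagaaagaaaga
A match describes the letters in this window and does not show binding. Neither PIP1;5 nor NRT2.5 has a match within 300 bases.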

How the data were processed

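Poly(A) RNA of 9 root libraries was sequenced. The deposited files hold read counts per locus, whole numbers made by the authors with FastQC, Trimmomatic, TopHat2 2.0.14, HTSeq and TAIR10, per the submitters' processing notes; strand and multi-locus settings were not stated there, so overlapping and antisense genes may share reads. Rows that name no gene were left out; reads in no feature made up 3.62% to 5.96% of a library's reads in genes, in none or in several. Columns of unmapped samples numbered 0.

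Counts were filtered by edgeR's filterByExpr, scaled by trimmed means and tested with edgeR 4.0.16 (R 4.3.3, limma 3.58.1, DESeq2 1.42.0 as an alternative), with the 9 libraries sharing 1 estimate of spread. The scripts were tested on simulated data. Counting intervals (95%, exact) and floors (3 counts) cover counting error only. Replicates differed beyond sampling noise (chi-square per degree of freedom 7.35 to 23.8). Same-numbered libraries of 35S:rMYB83 and Col-0 deviated together (correlations 0.554, 0.281 and 0.143). Some libraries of unlike number did too: 35S:rMYB83 replicate 2 correlated at 0.471 with Col-0 replicate 3, and 35S:rMYB83 replicate 3 at 0.102 with Col-0 replicate 2. These values do not settle whether the numbers pair the libraries. The main fit, which gave the p-values printed here, used no pairing. A fit with the replicate number as a block was run beside it.

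Names came from the RefSeq annotation of TAIR10.1 (28009 of 28775 loci matched). The 59 lists hold 3153 members. A fixed rule gave the genes that may be named: MYB83, the 12 largest called folds per direction with a mean of at least 1 CPM and no overlap, up to 4 called members per list with the smallest adjusted p, and the 4 largest per direction that also passed against 35S:miR858. Further genes, such as APS1, SULTR1;2 and GORK, were named after their values were seen. Members and lists were chosen with earlier results of these data known, and mismatched symbols were removed from lists after values were seen.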

Additional observations from a re-analysis of the deposited data

How the results depend on the processing

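Of 285 called genes picked for naming, 280 or more kept the call under RLE size factors (284), library totals (280), no filter (283) and DESeq2 (283), 268 with only both groups in the fit, 271 without both replicate 1 libraries, and 251 to 281 on leaving out 1 library. None of these 285 was reversed, and not all of them are printed here. AST56 and PP2-A1, whose calls were lost in several fits described above, are not among them. Counts moved more. Library totals gave 842 genes higher. Leaving out 1 library gave 783 to 1537 genes higher, 1223 to 2254 lower and 114 to 283 list members higher, against 213 with all. DESeq2 gave 565 genes lower in 35S:rMYB83 than in 35S:miR858, against 301 by edgeR, and leaving out 1 library gave 238 to 464 higher and 84 to 279 lower there. The cause was not tested. The smallest library, 35S:rMYB83 replicate 1, with 5313656 counts, limits the precision of genes with few reads.

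With the replicate number as a block, 1368 genes were higher and 1947 lower, so the block moved no total by over 1.5 times. Of the 285 calls of genes picked for naming, 281 held. In the lists described, it moved a count by more than that for ERF and DREB, extensin, peroxidase, suberin, jasmonate, endodermis, glucosinolate and camalexin, phloem, heat shock and iron genes, with the values given beside each list. Of the flavonoid enzymes it called 3 higher, against 1 without it.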
